A study of Mus musculus with 4 samples.

Results

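The T cell receptor complex and its proximal adaptors were followed through 9 genes: Cd3e, Cd3d, Cd3g, Cd8a, Thy1, Lck, Zap70, Lcp2 and Vav1. Every probe set that the array annotation gave 1 of these symbols was taken, which found 10 probe sets for 8 genes among 13069 gene probe sets, or 8 of 6137 genes with a symbol. No probe set carried the symbol Lck in the annotation used here, so Lck has no value, although the 4512 gene probe sets of the B chip and 791 of the A chip with no listed symbol may include one. Of the 10 probe sets, 6 lay on the B array type of an Affymetrix mouse pair, A and B (Cd3d, Cd3g, Cd8a, Thy1, Zap70 and Vav1) and 4 on the A type (Cd3e, Lcp2 and 2 for Vav1).

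The memory preparation came from B6.2.16 mice, in which a receptor transgene makes T cells see HY, an antigen of male cells. Splenocytes of female RAG1-deficient B6.2.16 animals were grown with HY peptide for 4 days and moved into female RAG1-deficient hosts. CD8 T cells were taken back from spleens and lymph nodes after 200 days with magnetic beads, at a stated purity above 80%. The naive preparation was CD8 T cells of the same female RAG1-deficient strain, taken from lymph nodes and stated to be more than 85% pure. RAG1 deficiency, which stops other T and B cells from forming, was thus shared by all donors and hosts. The sources used here give no ages, number of animals or pooling. Tissue, culture, transfer and sorting differed together with the group and cannot be told apart. Total RNA of each preparation was read on 1 array per chip, so no spread between samples and no p-value can be given, and every difference below compares 1 pair of arrays.

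The T cell receptor recognises peptide on MHC molecules but has no signalling tail of its own. The CD3 chains, products of Cd3e, Cd3d and Cd3g with the zeta chain from Cd247, carry the tyrosines that are phosphorylated by Lck, a kinase held on the CD8 coreceptor. Zap70 docks on those tyrosines and phosphorylates adaptors, among them SLP-76, the product of Lcp2, to which the exchange factor Vav1 binds. Thy1 is a lipid-anchored surface protein carried by mouse T cells and is not a subunit of the receptor.

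The 3 CD3 genes lie next to each other on mouse chromosome 9, and Cd3g and Cd3d are read in opposite directions from starts 1355 bases apart. Their upstream sequences are shown because the array measured these chains separately, and the letters let a reader compare the 3 promoters directly. Each run is the 250 bases before the start in RefSeq (build GRCm38.p6), 5′ to 3′ on the gene's strand, and capitals mark the E box letters CANNTG, to which E proteins of lymphocytes bind. The windows are chr9:45009612-45009861, minus strand, for Cd3e, chr9:44981536-44981785, plus strand, for Cd3d, and chr9:44980432-44980681, minus strand, for Cd3g.
Cd3e: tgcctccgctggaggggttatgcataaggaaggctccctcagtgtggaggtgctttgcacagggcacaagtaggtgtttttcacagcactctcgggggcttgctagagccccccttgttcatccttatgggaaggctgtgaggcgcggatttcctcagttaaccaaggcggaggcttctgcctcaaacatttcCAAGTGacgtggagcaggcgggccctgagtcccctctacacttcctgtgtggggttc
Cd3d: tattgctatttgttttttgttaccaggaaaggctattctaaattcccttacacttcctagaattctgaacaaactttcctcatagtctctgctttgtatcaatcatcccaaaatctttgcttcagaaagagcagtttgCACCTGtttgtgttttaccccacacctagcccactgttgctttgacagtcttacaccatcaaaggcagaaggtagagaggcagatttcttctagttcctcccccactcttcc
Cd3g: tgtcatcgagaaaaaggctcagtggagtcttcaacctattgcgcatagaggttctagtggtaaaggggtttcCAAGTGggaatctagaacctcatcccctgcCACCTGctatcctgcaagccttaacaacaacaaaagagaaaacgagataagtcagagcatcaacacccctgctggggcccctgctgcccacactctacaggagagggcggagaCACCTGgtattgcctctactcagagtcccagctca

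Cd3g had 3 E box matches in its window, at 178, 148 and 35 bases before the start, and Cd3d and Cd3e had 1 each. A match was found in at least 1 listed promoter of all 8 members with an entry, against 66.2% of 32851 RefSeq promoters cut to the same length. Lck and Zap70 have several listed starts. The member counts here are of genes with a match in any listed promoter, whereas the shares are of single promoters. The ETS letters GGAAGT, searched on both strands, were found for 5 of the 8 members, Cd3d and Cd3e among them, and in 19.7% of all promoters. The RUNX letters TGTGGT, also searched on both strands, were found for 2 of the 8, Lck and Zap70, and in 14.0% of all. None of the 8 held TATAAA on either strand, which 12.4% of all promoters did. The Cd3d window had a GC content of 41.2%, that of Cd3e 57.2% and that of Cd3g 51.6%, beside a median of 52.4% over all promoters. These matches describe letters and were not tested against the array values.

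The arrays set the limits of what follows. The values are intensities that include negative numbers, with 34.0% of the memory and 35.6% of the naive gene values on the B chip below zero. Both B arrays were brought to the same trimmed mean, and the floor, which 95% of the negative values on the noisier array did not exceed in size, was 423. A probe set was called at least 2-fold different only if its brighter array reached 2 times the floor, 846. The memory and naive B arrays ranked the 6540 gene probe sets alike (Spearman 0.85, across probe sets that are not replicates). On the A chip the same correlation was 0.10, and the naive A array followed its B counterpart at 0.21 over 55 control probe sets that A and B share, against 0.96 for the memory pair. No gene is therefore compared on the A chip, whose members are described by their memory level. The naive A array enters only through the noise limit given with them. In these bulk preparations fewer cells of a type and less RNA per cell cannot be told apart.

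On the B chip 1 of the 6 member genes, Thy1, was more than 2-fold lower in memory, none was 2-fold higher, and the other 5 were not called. Only Thy1 and Cd3d were bright enough to be called at all. Of the 249 named genes that bright, 16.1% were called lower and 16.5% higher, and of the 522 gene probe sets 21.6% and 12.8%. The split over all probe sets was 67 higher to 113 lower, and it became 94 to 91 with scaling by the median ratio, 100 to 73 with quantile normalization and 80 to 56 with intensity-dependent normalization. The 5 measured members, those above the floor on at least 1 array, had a median log2 ratio of memory to naive of -0.22. Over the 462 measured genes, of 1760 named genes on the chip, it was -0.12. In scaled intensity the difference between the arrays was larger than the floor for 1 member, Thy1, and smaller than it for the other 5. The floor was set from negative values, so this comparison depends on brightness and does not measure the spread between arrays.

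**Figure D1:**
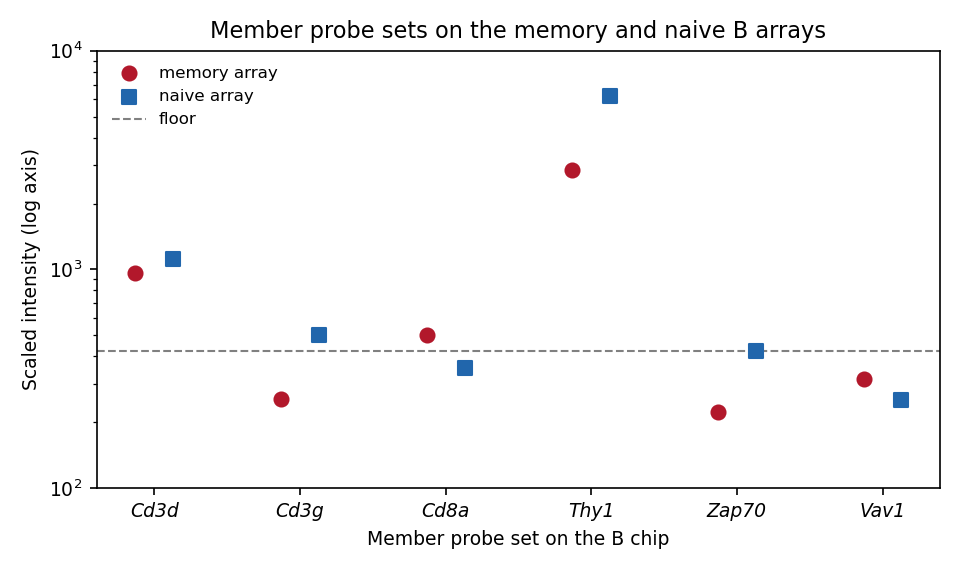
Scaled intensity (log axis) of the 6 member probe sets on the B chip, 1 memory array (circles, left of each pair) and 1 naive array (squares), with the floor of 423 as a dashed line. Thy1 and Cd3d lie above the floor on both arrays, Cd3g, Cd8a and Zap70 on 1 array each, and Vav1 on neither.

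Among the signalling chains, Cd3d encodes CD3 delta, which pairs with CD3 epsilon. Its probe set gave 959 on the memory array and 1115 on the naive array after scaling (966 and 1107 as deposited). Both values lay clearly above the floor, and memory was the lower of the pair. The log2 ratio was -0.22, inside 2-fold, and the difference of 156 intensity units was smaller than the floor. Cd3d ranked 368 of 6540 in memory and 309 in naive, both near the bright end of the chip.

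Cd3g encodes CD3 gamma, the partner of epsilon in the other CD3 pair of the complex. It gave 254 in memory, under the floor, and 502 in naive, just above it. The fold is thus only a bound, at least 1.19-fold lower in memory, and the log2 ratio with the memory value set to the floor was -0.25. With the floor halved both arrays counted as measured and the log2 ratio was -0.98, still inside 2-fold. The rank was 1290 in memory and 761 in naive.

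Cd8a encodes the alpha chain of the coreceptor that binds MHC class I and brings Lck to the receptor. Its probe set gave 498 in memory, above the floor, and 352 in naive, under it. Memory was higher by at least 1.18-fold, a bound, and the difference of 147 units was smaller than the floor. With the floor halved the log2 ratio was 0.50. Cd8a was the only measured member with a positive ratio, and it stood at rank 723 in memory and 1105 in naive.

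Thy1, which was the brightest member on both arrays, gave 2848 in memory and 6184 in naive (2869 and 6138 as deposited). The difference of 3336 units was larger than the floor of 423, which at this brightness does not measure the spread between arrays. The ratio was 2.17-fold lower in memory, a log2 ratio of -1.12. By rank the gap was narrower: Thy1 was number 83 of 6540 probe sets in memory and number 55 in naive. Thy1 lay among the 87 brightest of the 522 probe sets bright enough to be called, ordered by mean log2 intensity. In that group 85 of 87 ratios were below zero and 58.6% were called lower. Its median log2 ratio was -1.13, and Thy1 differed from it by 0.011. Within the group 45 probe sets had a lower ratio than Thy1 and 41 a higher one. The call was lost with scaling by the median ratio (-0.97), quantile normalization (-0.34) and an intensity-dependent one (-0.14). Scaling by the median ratio moved the median of all measured genes by 0.12, and relative to that median Thy1 stood at -0.998 as reported and at -0.96 with that scaling. Quantile normalization put it at -0.31 and the intensity-dependent one at -0.11.

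**Figure D2:**
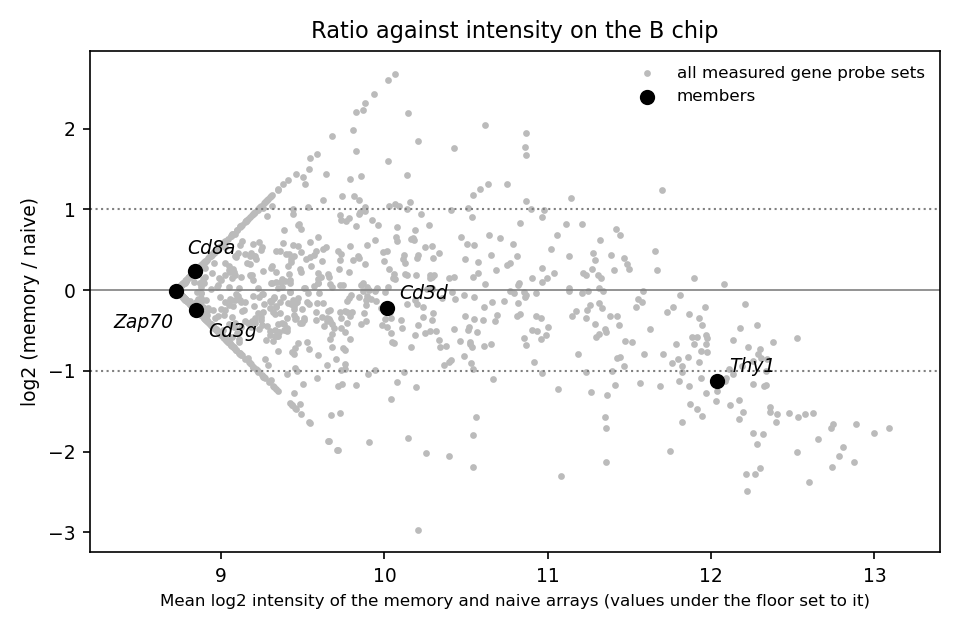
The log2 ratio of memory to naive against mean log2 intensity for the measured gene probe sets of the B chip (grey) and the 5 measured members (black). Dim values stand at the floor, with dotted lines at 2-fold. Thy1, at -1.12, sits inside the cloud of bright probe sets that bends below zero, Cd3d lies at -0.22 in the middle of the range, and Cd3g, Cd8a and Zap70 lie at the dim edge, where ratios are bounds.

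Zap70, the kinase that docks on phosphorylated CD3 chains, gave 221 in memory and 424 in naive. The naive value barely passed the floor of 423 and the memory value was under it, so no fold is given. With the floor halved the log2 ratio was -0.94, inside 2-fold. Zap70 stood at rank 1424 in memory and 912 in naive.

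Vav1, the exchange factor that binds SLP-76, had 1 probe set on the B chip. It gave 316 in memory and 252 in naive, both under the floor, and no ratio is given. The difference of 63.8 units was the smallest among the 6 members. The summed scaled intensity of the 5 B-chip members other than Thy1 was 2248 in memory and 2645 in naive, a ratio of 0.85, whereas with Thy1 the sums were 5096 and 8829, a ratio of 0.58. Of those 5 only Cd3d was above the floor on both arrays, so the sums hold values under it.

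Likeness to the members was measured as the distance in log2 memory and log2 naive intensity among the 316 named genes above the floor on both B arrays. With 2 arrays this compares only 2 numbers per gene, and it depends on the brightness of the probes. Nearest to Thy1 were Fos, an AP-1 transcription factor subunit (2997 and 6366), the kinase gene Pim1 (2725 and 6448) and the peptidyl-prolyl isomerase gene Ppia (2579 and 6229), memory first. Their log2 ratios were -1.09, -1.24 and -1.27. Nearest to Cd3d were Mrpl33, a mitochondrial ribosomal protein gene, Trim27, which encodes a RING finger protein, and Atp6v1b2, a subunit gene of the vacuolar proton pump, with log2 ratios of -0.21, -0.22 and -0.27.

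On the A chip the members were read on the memory array alone. The floor there, set by the noisier naive array, was 296, and the same limit from the memory array alone was 184. Of 6529 gene probe sets 17.5% passed the floor of 296, and 3 of the 4 member probe sets did. The limit of 184 was passed by 26.7% of all gene probe sets and by all 4 of the members. Cd3e, the epsilon chain shared by both CD3 pairs, gave 317, at percentile 83.6 of the array. Lcp2, the gene of the adaptor SLP-76, gave 442 at percentile 88.7. The Vav1 probe set d83266_at gave 463 at percentile 89.2, while d83266_g_at, made for the same sequence record, gave 196 at percentile 74.7, above 184 and under 296. The 2 probe sets for Vav1 thus fell on different sides of the floor, and the B-chip one was under the floor of its own chip. Levels of different probe sets depend on their probes, so these values order no gene above another.

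**Figure D3:**
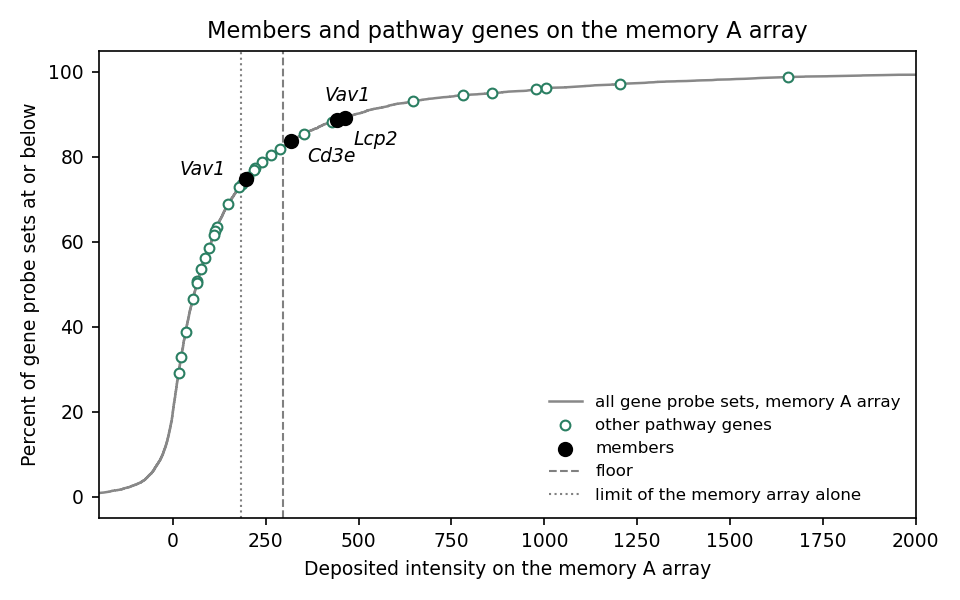
Deposited intensity on the memory A array (horizontal) against the percent of 6529 gene probe sets at or below it (vertical), with the 4 member probe sets in black, the 30 probe sets of other pathway genes as open circles, the floor of 296 dashed and the memory array's own limit of 184 dotted. Cd3e, Lcp2 and 1 of the 2 Vav1 probe sets lie right of the floor, between 317 and 463.

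The other genes of the pathway were taken from a list of 72 symbols, from CD3 zeta to calcineurin, kinases, phosphatases and costimulatory receptors. On the B chip 14 of them had a probe set and 5 were measured, beside 462 of all 1760 named genes. None of the 14 was 2-fold higher or lower, and the median log2 ratio was 0.18. That median is the ratio of Ctla4, whose naive value was under the floor, so it is only a bound. Only 1 listed gene, Calm2, was bright enough to be called, beside a background of 16.5% called higher and 16.1% lower. Calm2, which encodes the calcium sensor calmodulin, gave 1322 in memory and 1696 in naive, a log2 ratio of -0.36. Csk, the kinase that holds Lck inactive, gave 530 and 457, memory first, a log2 ratio of 0.21. That probe set is of the sequence-family class, made to match related genes together. Akt1, a kinase downstream of phosphoinositide 3-kinase, gave 622 in memory and 546 in naive, a log2 ratio of 0.19. The inhibitory receptor gene Ctla4 gave 480 in memory and 378 in naive, and the calcineurin subunit gene Ppp3cb 336 in memory and 659 in naive, each with 1 value under the floor. Another Ppp3cb probe set on the B chip gave 25.8 in memory and -70.5 in naive, under the floor on both arrays. On the memory A array Ppp3cb gave 65, under the limit of 184. Cd247, the zeta chain gene, was under the floor on both arrays (168 in memory and 223 in naive).

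On the memory A array 9 of 30 probe sets of the list, for 8 of 26 genes, passed the floor of 296, beside 17.5% of all. The limit of 184 was passed by 16 of the 30, beside 26.7% of all. Fyb, an adaptor that binds SLP-76, gave 1655 with 1 probe set and 429 with another. Ptprc, the gene of the phosphatase CD45 that activates Lck, gave 1204, and the phosphatase gene Ptpn22 1005. Csk gave 977 and Ptpn6, the gene of the phosphatase SHP-1, 858. Cd247 gave 240, under the floor and above the limit of 184, as did Cd28, the costimulatory receptor gene, at 186. Csk was also read by U05247_f_at, again of the sequence-family class, at 217, so its probe sets lay on both sides of the floor.

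The labelled cell type was set against its markers. Of 10 T cell markers 6 had a B-chip probe set. Of these 4 (Cd3d, Cd3g, Cd8a and Thy1) passed the floor on 1 array or both. Cd2 (238 in memory and 153 in naive) and Cd247 did not. Of all 1760 named genes on the chip 462 passed it on 1 array or both. Cd4, the helper T cell coreceptor, was under the floor in both preparations (144 in memory and 232 in naive). Macrophage markers moved with the group. All 9 on the B chip were measured, 5 of them were at least 2-fold higher in memory and none lower, beside 16.5% higher and 16.1% lower over all named genes bright enough to be called. Their summed intensity was 24654 in memory and 14013 in naive. The sum over the 6 T cell markers was 4965 in memory and 8529 in naive, and over the 5 other than Thy1 it was 2117 in memory and 2344 in naive. Of those 5 only Cd3d was above the floor on both arrays. The 3 erythroid markers summed to 6240 in memory and 17584 in naive, with 1 higher and 2 lower in memory. The 3 granulocyte markers summed to 7679 in memory and 8620 in naive, and 0 of them was called. The 2 NK cell markers summed to 381 in memory and 1064 in naive, and 0 of them was called. Klra4 (102 in memory and 548 in naive) and Klra8 (279 in memory and 516 in naive) were both under the floor in memory. Their log2 ratios, -0.37 and -0.29, are thus only bounds, and the memory sum holds only values under the floor. Of the 5 B cell markers the only one on the chip, Cd79a, was under the floor in both preparations. On the memory A array 1 of 3 B cell markers, Ms4a1, passed the floor of 296, at 301. That floor was also passed there by 1 of 3 T cell, 4 of 5 macrophage and 3 of 3 granulocyte markers. Of the dendritic cell markers 1 of 2 passed and of the NK cell markers 0 of 1, beside 17.5% of all gene probe sets. Of 4 dendritic cell markers on the B chip 3 were measured, all genes of MHC class II chains or loading. H2-Ab1 was called higher in memory, Cd74 lower (3068 in memory and 9507 in naive), and H2-Aa was not called. The remaining marker, Flt3, was under the floor in both preparations. The sums over the 4 were 8491 in memory and 12629 in naive. Cd74 and the erythroid marker Hba-a1 (2007 in memory and 11296 in naive) had a higher mean log2 intensity than Thy1. Both thus lay in the group of the 87 brightest probe sets, of which 58.6% were called lower. The part of these cells in the member values was not tested.

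The member ratios were compared across scalings and floors. Only the 4 other scalings could move Thy1 and Cd3d, which each have 1 probe set above the floor on both arrays, and the other 9 alternatives left their ratios as reported. Under the 4 scalings Thy1 ran from -1.10 to -0.14 and lost its call under 3. Cd3d ran from -0.25 to -0.069 and was not called. Cd8a ran from 0.25 to 0.54, with its naive value under the floor, and was not called. Where values lie under the floor, setting them to it fixes part of these ratios.

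**Figure D4:**
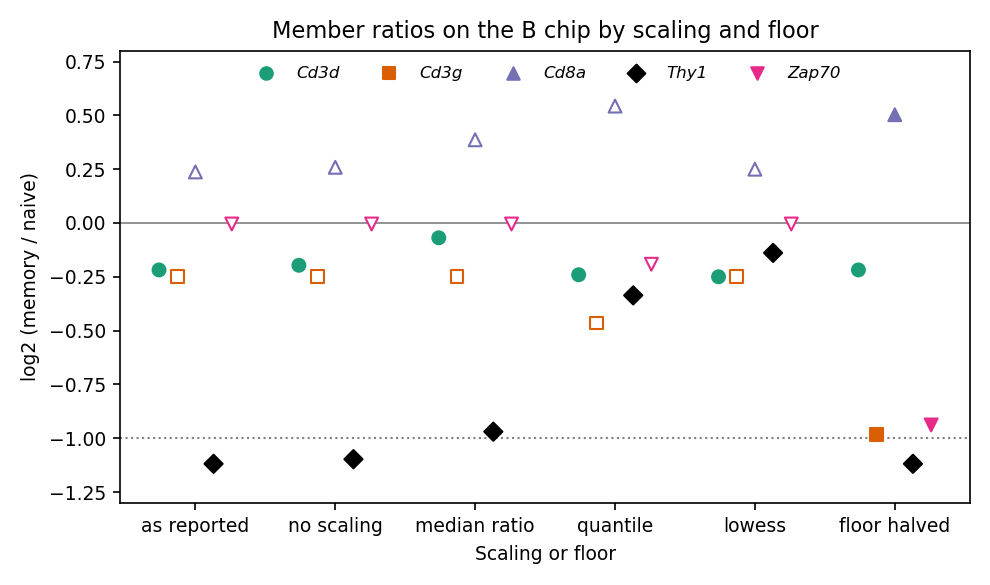
Log2 ratio of memory to naive of the 5 measured members on the B chip (vertical) under 6 settings (horizontal), filled where both arrays were above the floor and open where the ratio is a bound, with a dotted line at 2-fold lower. Thy1 lies at -1.12 as reported and at -0.14 with intensity-dependent (lowess) normalization, whereas Cd3d stays between -0.25 and -0.069.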

How the data were processed

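The deposited values, per the file headers 1 number per probe set and array, were array intensity values in whole numbers that include negative ones. The software behind them and a genome build are not stated there. The means after cutting 2% of the values at each end (150.2, 150.2, 150.3 and 150.4) were close, so the intensity values appeared to be scaled before they were deposited.

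Samples were grouped by title. The 55 control probe sets of each chip were left out, and the B arrays were multiplied by 0.993 (memory) and 1.01 (naive) to share 1 trimmed mean. Dim B values were raised to the floor and log2 ratios then taken, memory over naive. A gene stood for its brightest probe set. The A-chip memory values were used as deposited. Symbols came from the platform annotation, with 2001 of 6540 gene probe sets on B and 5541 of 6529 on A holding 1 symbol. Of these, 1993 and 5532 matched RefSeq (GRCm38.p6) by Entrez number, and 0 changed. No array coordinates are given.

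The members, the gene lists and the rule for named genes were chosen with earlier results of these data known. That rule took all members, the listed pathway genes above 2 floors on B, the 5 brightest on the memory A array and the 3 nearest genes to each member above the floor on both B arrays. Other list genes are examples chosen after their values were seen. A single array per preparation and chip allows no test, and precision is limited by the number of arrays. The script that makes the calls was tested on simulated data, which says nothing of replicate error. Python 3.11.15, numpy 2.4.6, pandas 2.3.3, scipy 1.17.1 and statsmodels 0.14.6 were used.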

Additional observations from a re-analysis of the deposited data

How the results depend on the processing

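No paired analysis was possible because each chip holds 1 memory and 1 naive array, and for the same reason no array could be left out. The 13 alternatives on the B chip were chosen with earlier results known. The count of member genes past 2-fold, 1 as reported, was 0 with median-ratio scaling, with quantile normalization, with intensity-dependent normalization and with a 3-fold threshold, and 1 under the other 9, most of which cannot move the ratio of Thy1. The cause was not tested. The count of pathway genes past 2-fold was 0 under all 13. As reported only Calm2 was bright enough to be called, which limits how far this count could move. The median log2 ratio of measured members was below zero under all 13, from -0.67 to -0.069. As reported that median is the value of Cd3d, -0.22. The fold thresholds, brightness limits, sequence-family filter and mean over a gene's probe sets left it unchanged. At -0.67 only Thy1 and Cd3d were measured. Over all gene probe sets the count of 180 became 319 with the floor halved, 99 with it doubled, 294 at 1.5-fold, 58 at 3-fold, 99 with the brighter array at least 4 times the floor and 93 without probe sets of the sequence-family class, made to match related genes together. Without sequence-family probe sets the split was 48 higher to 45 lower. With the floor halved, Cd3g moved to -0.98 and Zap70 to -0.94, because values that had been set to the floor then counted. With the floor doubled, or with only probe sets above the floor on both arrays, Cd3d and Thy1 were the 2 members left. With the A-chip limit of the memory array alone, 4 member probe sets passed in place of 3, and 26.7% of all probe sets in place of 17.5%. Signal over background limits Cd3g, Cd8a, Zap70 and Vav1 to bounds or to no ratio.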

Other observations

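Among probe sets with a listed symbol, the receptor chains were represented by variable genes, picked out after their values were seen. On the memory A array 1 of 6 such probe sets with a single symbol passed the floor of 296, beside 17.5% of all gene probe sets. Trav9d-3, an alpha chain variable gene, gave 1765, at percentile 99.0 of the array. Trbv13-2, a beta chain variable gene, gave 145 there, and the gamma chain variable genes Trgv1 and Trgv4 gave -1 to 196. On the B chip 1 of 3 passed the floor of 423, beside 462 of the 1760 named genes: Trav12d-2 gave 630 in memory and 470 in naive. The other two were under the floor in both preparations, with Trav19 at 68.5 in memory and 25.2 in naive, and Trbv13-2 at -189 in memory and -105 in naive. Variable genes of 1 family are closely similar, so these probe sets may read more than the gene they are named for.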
